A study of Homo sapiens with 6 samples.

Results

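Translation initiation factors were followed as the 79 rows of the count table, out of 16315, whose gene symbol begins with EIF and a digit from 1 to 6. By symbol, 52 of the rows are protein-coding initiation factors, their kinases or their repressors, 24 are pseudogenes and 3 are antisense or divergent transcripts. The cells were F36P, an established human leukaemia line with erythroid features that depends on cytokine for growth. They had been transduced with a guide that targets HDAC7, one of the class IIa histone deacetylases (sgHDAC7, genotype labelled knockout), or with a non-targeting guide (sgNT). Both groups carried a puromycin resistance plasmid and were selected in 1 µg/ml puromycin for 4 days, and poly(A) RNA was sequenced. Each group held 3 libraries, which the labels call biological replicates. The labels do not say whether the replicates were grown apart, so the p-values measure the spread between these libraries only. Whether the edited cells were a pool or a clone, and how many guides were used, is not given in the sources used here. The series asks how HDAC7 acts on erythroid differentiation.

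HDAC7 messenger RNA was lower in every library that carried its guide. It had 194, 238 and 246 CPM (read counts scaled to library size with TMM factors, the unit of all levels) in sgHDAC7 replicates 1 to 3 and 449, 460 and 461 in sgNT (log2 fold change -1.02 ± 0.09 SE, edgeR adjusted p = 0.00139). Library totals ran from 10039693 to 12521195 counts. In both groups replicate 1 differed in profile from the other replicates. Counts of called members are therefore given from 3 fits: with group alone, with a term for replicate 1, and on replicates 2 and 3 alone. The term takes the replicate 1 shift to be the same in both groups, and it cannot fit a shift in only 1 of them. All 11 erythroid markers on the list were in the table, with a summed level of 17671 to 24893 CPM in sgHDAC7 and 12284 to 18522 CPM in sgNT. Of the 7 lymphoid markers, CD3D, CD3E, CD8A and MS4A1 are not analysed here, while CD4 stood at a mean of 299 CPM. The 3 measured lymphoid markers summed to 335 to 347 CPM in sgHDAC7 and 286 to 298 CPM in sgNT. The 3 measured of 6 monocyte and granulocyte markers summed to 107 to 116 CPM in sgHDAC7 and 143 to 147 CPM in sgNT. The part of these shifts in the results on initiation factors was not tested.

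Translation of most messenger RNAs begins when EIF2, loaded with GTP and the initiator tRNA, joins EIF1, EIF1A, EIF3 and EIF5 on the small ribosomal subunit. The EIF4F complex, made of the cap-binding protein EIF4E, the scaffold EIF4G and the helicase EIF4A, brings that subunit to the capped end of the messenger, and it scans to a start codon. Cells slow the process mainly by phosphorylating EIF2, through 4 kinases, and by EIF4E-binding proteins that keep EIF4E from EIF4G. Red cell precursors make globin in bulk, and their haem-regulated EIF2 kinase ties that synthesis to the supply of haem.

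By group alone, few initiation factor genes differed between the guides. Of the 79 members, 72 had a mean of at least 1 CPM and were tested, and 1 of them (1.39%) changed at an edgeR adjusted p under 0.05, against 2.86% of all 13841 genes tested. That member was EIF2S2, the beta subunit of EIF2, which was lower in sgHDAC7, as were 1.70% of all tested genes. The median log2 fold change was 0.04 over the tested members and -0.002 over all tested genes. The median size of the change, regardless of sign, was 0.12 for members and 0.15 for all tested genes, and 59 of the 72 members lay within 0.2 of 0. DESeq2 called 5 members, against 5.14% of all tested genes, and limma called 1, against 2.60%. An unadjusted edgeR p under the same threshold was found for 20 members and for 19.2% of all tested genes. As a share of all counts the members took 1.24%, 1.28% and 1.26% in sgHDAC7 and 1.24%, 1.21% and 1.21% in sgNT.

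How many members were called depended on the treatment of the replicate 1 libraries. With the replicate 1 term 8 of 72 members (11.1%) passed the edgeR test, against 12.6% of all tested genes (5.78% higher and 6.81% lower). EIF5, EIF1AD, EIF4G2, EIF3A and EIF5B were higher in sgHDAC7, while EIF2S2, EIF1 and EIF4EBP1 were lower. On replicates 2 and 3 alone 25 members (34.7%) passed, 17 higher and 8 lower, against 20.6% of all tested genes (9.72% higher and 10.9% lower). In 25 members (34.7%) the values of the groups did not overlap, 15 above and 10 below, and the same held for 25.1% of all tested genes, 13.0% above and 12.2% below. Without sgNT replicate 1 the group-alone fit called 13 members and 11.5% of all tested genes, and without any other single library it called 0 members.

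**Figure D1:**
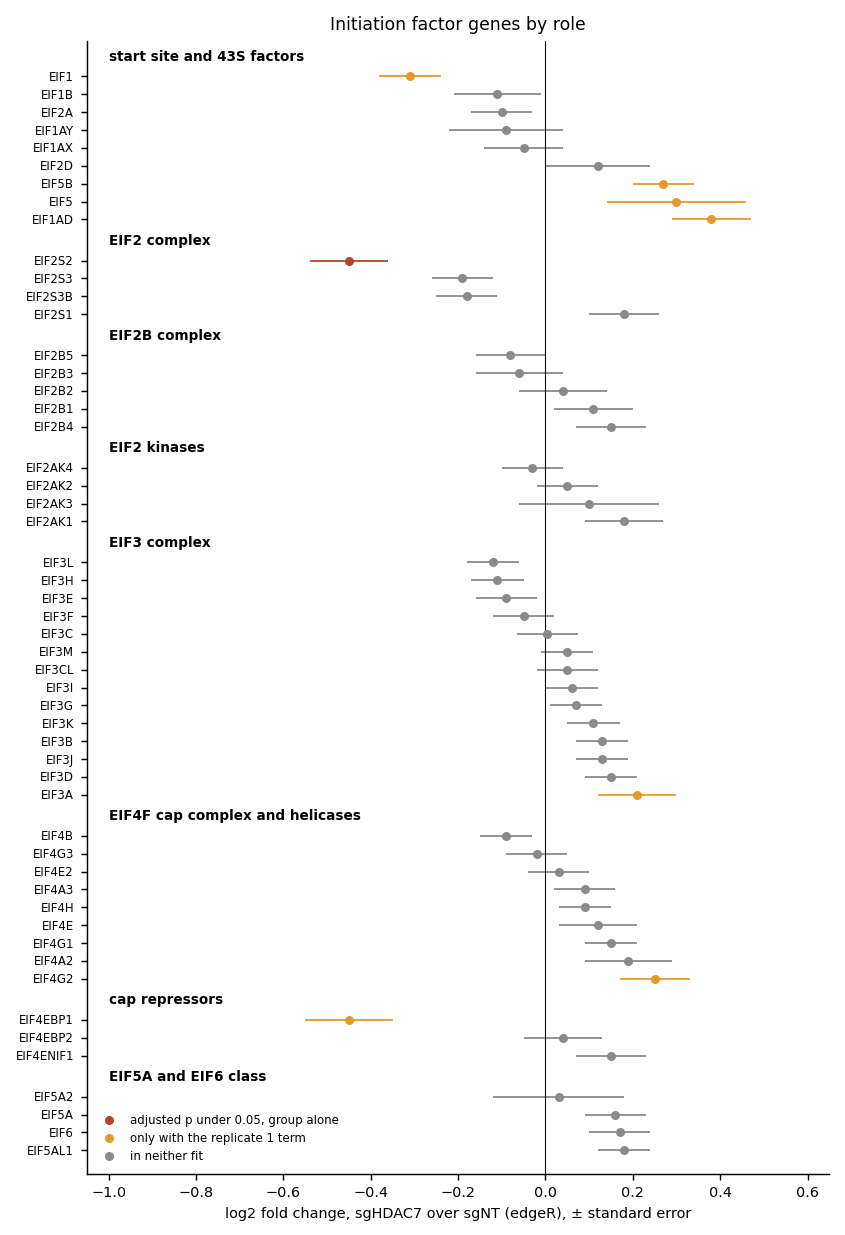
Log2 fold change of each protein-coding member, sgHDAC7 over sgNT, from the edgeR fit with group alone (x axis; points with standard errors), grouped by role on the y axis. EIF2S2 is the member called with group alone, 7 more are called with the replicate 1 term, and every protein-coding member lies between -0.45 and 0.38.

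Within EIF2, the beta subunit fell by group alone, and the alpha and gamma subunits did not pass that test. EIF2S2 (GRCh38 chr20:34088298-34112332, minus strand) had 56.1, 51.4 and 57.7 CPM in sgHDAC7 and 66.1, 80.1 and 79.5 CPM in sgNT. Each sgHDAC7 library was below each sgNT library, and sgNT replicate 1 was the lowest of its group. The fall was 1.37-fold (log2 -0.45 ± 0.09, edgeR adjusted p = 0.0399), and an exact permutation test of the 3 against 3 libraries gave 0.1, the smallest p that this design allows. With the replicate 1 term the adjusted p was 0.00414, and over the 17 alternatives to the group-alone fit it ran from 6.78e-06 to 0.213. Among the single-library omissions the call held only without sgNT replicate 1. Since the samples are bulk RNA, fewer cells of a type and less RNA per cell cannot be told apart here or in any later result.

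EIF2S3, the GTP-binding gamma subunit, had 288, 286 and 285 CPM in sgHDAC7 against 298, 337 and 341 CPM in sgNT. Its log2 fold change was -0.19 ± 0.07 (edgeR adjusted p = 0.173). The sgHDAC7 libraries all lay below the sgNT libraries, and the 2 replicate 1 libraries were close. EIF2S1, the alpha subunit that the stress kinases phosphorylate, had 172, 172 and 169 CPM in sgHDAC7 against 170, 145 and 138 CPM in sgNT (log2 0.18 ± 0.08, adjusted p = 0.266). Its groups overlapped through sgNT replicate 1. On replicates 2 and 3 alone all 4 rows of the complex passed, as did 20.6% of all tested genes. EIF2S1 was higher (log2 0.27), and EIF2S2, EIF2S3 and its retrogene EIF2S3B were lower (-0.55, -0.25 and -0.20). Of all 50-base words in EIF2S3B, 26.8% also occur in EIF2S3 transcripts, so these rows may share reads. EIF2S3B had a log2 fold change of -0.18 with group alone (adjusted p = 0.178) and groups that did not overlap.

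Much of the processed pseudogene EIF2S2P4, an intronless copy at chr2:170751805-170752788 on the plus strand, has the same sequence as EIF2S2. Over the 6 libraries the copy took 10470 counts and EIF2S2 itself 4409, so that 70.7% of the counts of the family stood on copies. Of all 50-base words in the copy, 59.5% also occur in an EIF2S2 transcript, and 39.5% of its 100-base words do. Of the words in EIF2S2, 21.3% of those of 50 bases and 13.7% of those of 100 bases occur in the copy. Aligned over 981 coding bases, the copy and its parent differ at 11 positions (98.9% identity), and their longest identical run is 269 bases. The following 60-base stretch of each is shown because it holds 4 of these differences (in capitals). Reads of the pair can be told apart at these and at other positions. The EIF2S2 stretch lies in coding exon 9 of 9 at chr20:34089767-34089826 (GRCh38, minus strand) and the EIF2S2P4 stretch at chr2:170752692-170752751 (plus strand).
EIF2S2: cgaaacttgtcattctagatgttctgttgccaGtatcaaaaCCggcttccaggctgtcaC
EIF2S2P4: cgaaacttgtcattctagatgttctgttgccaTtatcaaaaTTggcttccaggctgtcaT

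EIF2S2P4 had 136, 146 and 141 CPM in sgHDAC7 against 123, 196 and 181 CPM in sgNT. Its log2 fold change was -0.24 ± 0.14 (edgeR adjusted p = 0.397). Here sgNT replicate 1 was the lowest of all 6 libraries, and the other sgNT libraries were the highest. The copy passed the edgeR test on replicates 2 and 3 alone (log2 -0.39, adjusted p = 1.38e-05) and without sgNT replicate 1 (log2 -0.42, adjusted p = 0.00221). When EIF2S2 and its copies were summed, the family stood at 194, 199 and 202 CPM in sgHDAC7 and 191, 279 and 263 CPM in sgNT. The groups of the sum overlapped, and the fall no longer passed the edgeR test (log2 -0.30 ± 0.12, adjusted p = 0.213). How the authors' counting treated reads that fit both rows is not given in the sources used here.

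**Figure D2:**
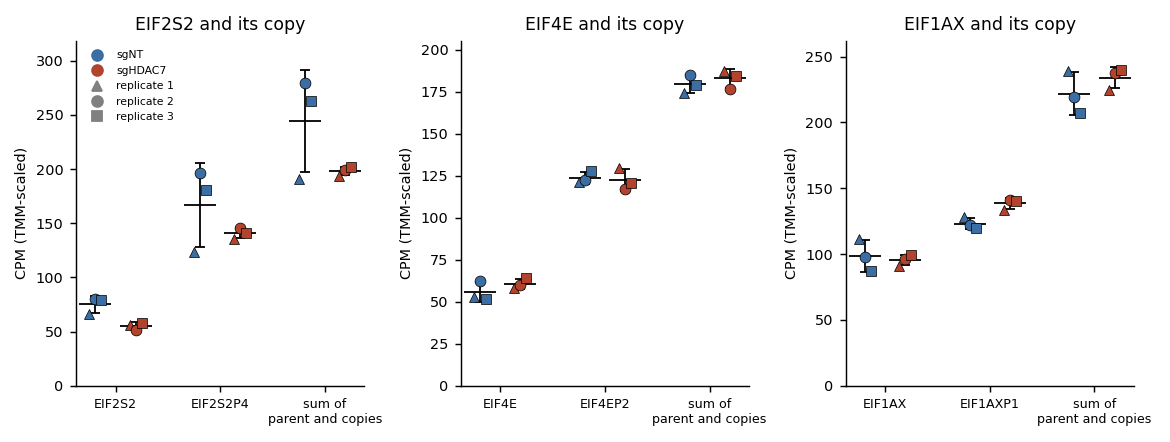
TMM-scaled CPM (y axes, from 0) of EIF2S2, EIF4E and EIF1AX, of a processed pseudogene of each and of the summed family, by library; symbols give the replicate number, bars the mean ± SD of 3 libraries. The EIF2S2 row does not overlap between the guides, while the summed family of 194 to 202 CPM in sgHDAC7 overlaps the 191 to 279 CPM of sgNT.

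Factors that set the choice of start codon were called in opposite directions with the replicate 1 term, EIF1 lower and EIF5 higher. EIF1 (chr17:41688885-41692668, plus strand), which keeps the scanning ribosome open and holds it back from poor start codons, had 335, 321 and 322 CPM in sgHDAC7 and 370, 436 and 408 CPM in sgNT. All sgHDAC7 libraries were lower than all sgNT libraries. The log2 fold change was -0.31 ± 0.07 and missed the threshold with group alone (edgeR adjusted p = 0.0516), but EIF1 was called with the replicate 1 term (adjusted p = 0.00711). Over the 17 alternatives its adjusted p ran from 3.99e-06 to 0.209. Pseudogenes of EIF1 took 1.63% of the family's counts, and the summed family gave the same fold change (log2 -0.31).

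EIF5 (chr14:103333544-103345025, plus strand), which triggers GTP hydrolysis by EIF2 and counters EIF1 at the start codon, had 238, 210 and 225 CPM in sgHDAC7 and 240, 155 and 152 CPM in sgNT. The replicate 1 libraries were alike, and replicates 2 and 3 of sgNT were the lowest. By group alone its log2 fold change was 0.30 ± 0.16 (edgeR adjusted p = 0.33), and the replicate 1 term gave 0.33 (adjusted p = 0.0286). Its log2 ratio of sgHDAC7 over sgNT was -0.01 in replicate 1 and 0.50 on average in replicates 2 and 3. The call with the term therefore rests on replicates 2 and 3. Over the 17 alternatives its adjusted p ran from 1.98e-07 to 0.644.

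EIF5B, the GTPase that joins the ribosomal subunits, had 464, 478 and 490 CPM in sgHDAC7 and 396, 431 and 363 CPM in sgNT, with no overlap (log2 0.27 ± 0.07, edgeR adjusted p = 0.0843, or 0.018 once the replicate 1 term was in). EIF1AD, which carries an EIF1A-like domain, had 41.6, 45.3 and 48.5 CPM in sgHDAC7 and 36.7, 32.9 and 34.6 CPM in sgNT, again with no overlap. Its log2 fold change was 0.38 ± 0.09 (edgeR adjusted p = 0.0629, or 0.0159 in the fit with that term). Both genes were higher in sgHDAC7 in replicate 1 as well as in replicates 2 and 3, by 0.23 and 0.29 (log2) for EIF5B and by 0.18 and 0.47 for EIF1AD. EIF1AX, which places the initiator tRNA together with EIF1, had a log2 fold change of -0.05 ± 0.09 (adjusted p = 0.826). The other 4 members of this role are the paralogues EIF1B and EIF1AY and the alternative factors EIF2A and EIF2D. With group alone they ran from -0.11 to 0.12, and neither that fit nor the replicate 1 term called any. EIF1B passed on replicates 2 and 3 alone (log2 -0.24, edgeR adjusted p = 0.0368), as did 20.6% of all tested genes. Over the whole role, 3 of 9 members were higher and 1 lower with the replicate 1 term, against 5.78% and 6.81% of all tested genes.

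**Figure D3:**
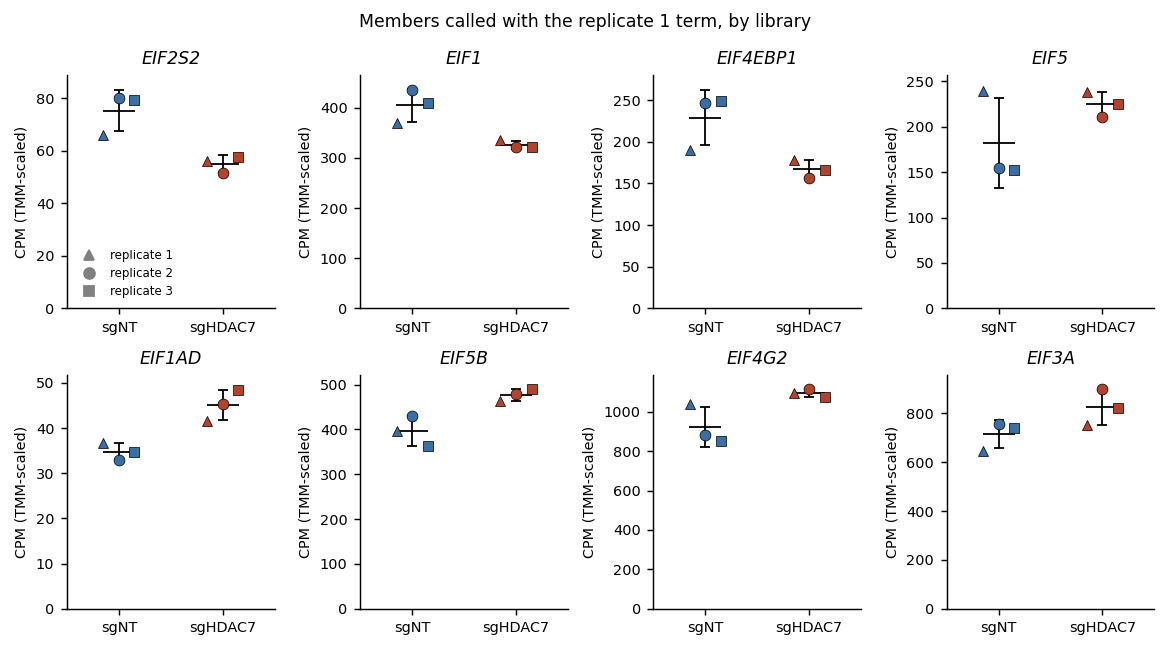
TMM-scaled CPM (y axes, from 0) in each library of the 8 members called with the replicate 1 term; symbols give the replicate number, bars the mean ± SD of 3 libraries per group. The groups do not overlap for EIF2S2, EIF1, EIF4EBP1, EIF1AD, EIF5B and EIF4G2, and they overlap for EIF5 and EIF3A.

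Among the proteins that hold EIF4E back, EIF4EBP1 was called lower with the replicate 1 term and its paralogue EIF4EBP2 was not, though the difference between them was not tested. EIF4EBP1, which binds EIF4E until mTORC1 phosphorylates it, had 179, 157 and 166 CPM in sgHDAC7 and 191, 247 and 249 CPM in sgNT. No sgHDAC7 library reached the lowest sgNT library, which was replicate 1. Its log2 fold change was -0.45 ± 0.10, with an edgeR adjusted p of 0.0516 for group alone and of 0.00662 for the fit with the replicate 1 term. The log2 ratio was -0.09 in replicate 1 and -0.62 on average in replicates 2 and 3. Over the 17 alternatives the adjusted p ran from 3.5e-09 to 0.219.

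EIF4EBP2 had 155, 152 and 150 CPM in sgHDAC7 against 128, 157 and 159 CPM in sgNT (edgeR log2 fold change 0.04 ± 0.09, adjusted p = 0.845). The groups overlapped, since sgNT replicate 1 was the lowest and sgNT replicates 2 and 3 the highest. Within a library, the ratio of EIF4EBP1 to EIF4EBP2 counts was 1.15, 1.03 and 1.10 in sgHDAC7 and 1.49, 1.57 and 1.57 in sgNT. That ratio, chosen after the values were seen, separated the guides in replicate 1 too and is given without a test. In replicate 1 the separation lay mostly in EIF4EBP2, whose log2 ratio was 0.28 there, against -0.09 for EIF4EBP1. Over replicates 2 and 3 the log2 ratio of EIF4EBP2 was -0.07. EIF4ENIF1, which binds EIF4E and moves it into the nucleus and to processing bodies, had a log2 fold change of 0.15 (adjusted p = 0.35).

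Among the cap-binding complex, its relatives and the helicases, 1 of 9 members was called with the replicate 1 term, against 12.6% of all tested genes. The call was EIF4G2, and EIF4E, EIF4G1, EIF4G3 and EIF4A2 were not called in that fit. EIF4G2, an EIF4G relative that lacks the EIF4E-binding site, had 1096, 1116 and 1076 CPM in sgHDAC7 and 1039, 880 and 849 CPM in sgNT. The groups did not overlap, and sgNT replicate 1 came nearest to sgHDAC7. The log2 fold change was 0.25 ± 0.08 (edgeR adjusted p = 0.132, or 0.0183 given the replicate 1 term). EIF4G1, the main scaffold, had 1137, 1201 and 1170 CPM against 1116, 994 and 1056 CPM (log2 0.15 ± 0.06, adjusted p = 0.246), and EIF4G3 had a log2 fold change of -0.02 ± 0.07. EIF4A2, a helicase subunit, had 265, 328 and 350 CPM in sgHDAC7 against 294, 271 and 264 CPM in sgNT (log2 0.19 ± 0.10, adjusted p = 0.345). In replicate 1 EIF4A2 was lower in sgHDAC7 (log2 ratio -0.15), and in replicates 2 and 3 it was higher (0.34). EIF4A2 and EIF4G1 passed the edgeR test on replicates 2 and 3 alone, at log2 0.34 (adjusted p = 3.03e-05) and 0.21 (adjusted p = 0.00514). EIF4B, which stimulates the helicase, stood at -0.09 ± 0.06. The other helicase and cap factors, EIF4A3, EIF4E2 and EIF4H, ran from 0.03 to 0.09 and did not pass. EIF4A1, EIF4E1B, EIF4E3 and EIF4EBP3 are not analysed here.

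EIF4E had 58.1, 59.7 and 63.8 CPM in sgHDAC7 against 52.8, 62.6 and 51.6 CPM in sgNT, with overlapping groups (log2 0.12 ± 0.09, edgeR adjusted p = 0.519). Its processed pseudogene EIF4EP2 (chr17:49424269-49424922, minus strand) took 8399 counts over the 6 libraries against 3982 for EIF4E, or 67.8% of the pair. EIF4EP2 differs from the EIF4E coding sequence at 4 of 651 aligned bases (99.4% identity), and 71.5% of its 100-base words occur in EIF4E transcripts.

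Summed with its copy, EIF4E stood at 188, 177 and 185 CPM in sgHDAC7 against 174, 185 and 179 CPM in sgNT (edgeR log2 fold change 0.03 ± 0.06, adjusted p = 0.846). The guides were closer for the sum than for EIF4E alone. The ratio of EIF4EBP1 counts to EIF4E counts was also chosen after the values were seen and is given without a test. It was 3.07, 2.62 and 2.60 in sgHDAC7 and 3.61, 3.95 and 4.83 in sgNT. With the copy included it was 0.952, 0.887 and 0.900 against 1.10, 1.34 and 1.39, so the groups stayed apart on both ways of counting. Both ways hold the same EIF4EBP1 counts, so they are not independent of each other or of the EIF4EBP1 values.

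**Figure D4:**
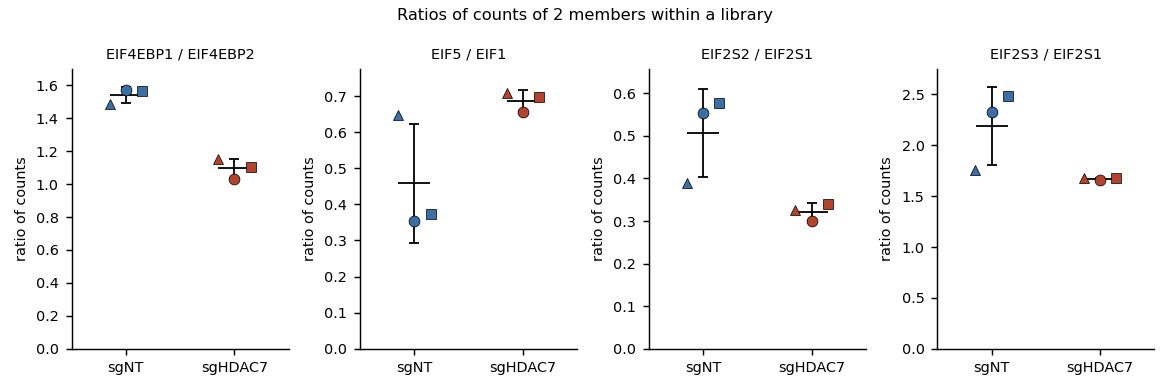
Ratio of the counts of a pair of members within each library (y axes, from 0), by group; symbols give the replicate number as in the plot of called members, bars the mean ± SD of 3 libraries. The 4 pairs were chosen after their values were seen. Replicate 1 of sgNT lies nearest to sgHDAC7 in each, and the groups do not overlap. The ratios of EIF4G2 to EIF4G1 and of EIF4A2 to EIF4G1, also taken and not drawn, overlap between the groups.

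Ratios within a library were also taken for EIF5 against EIF1 and for the EIF2 subunits, again chosen after the values were seen and without a test. The EIF5 to EIF1 ratio was 0.710, 0.655 and 0.698 in sgHDAC7 and 0.647, 0.355 and 0.372 in sgNT. The EIF2S2 to EIF2S1 ratio was 0.327, 0.299 and 0.340 against 0.389, 0.554 and 0.578. With the copies summed the latter became 1.13, 1.16 and 1.19 against 1.12, 1.93 and 1.91, and the groups overlapped. In each of these ratios sgNT replicate 1 was nearer to the sgHDAC7 libraries than sgNT replicates 2 and 3 were.

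The 4 EIF2 kinases did not pass in any of the 3 fits. EIF2AK1, the haem-regulated kinase of red cell precursors, had 142, 157 and 151 CPM in sgHDAC7 against 118, 132 and 146 CPM in sgNT (edgeR log2 fold change 0.18 ± 0.09, adjusted p = 0.284). The groups overlapped, since sgNT replicate 3 lay above sgHDAC7 replicate 1. EIF2AK2, which senses double-stranded RNA, EIF2AK3, which senses unfolded protein in the endoplasmic reticulum, and EIF2AK4, which senses uncharged tRNA, had log2 fold changes of 0.05 ± 0.07, 0.10 ± 0.16 and -0.03 ± 0.07. EIF2AK3 was measured at 10.6 to 14.5 CPM, where its standard error was the widest of the kinases.

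EIF2B recharges EIF2 with GTP and is the complex that phosphorylated EIF2 blocks. Its subunits EIF2B1 to EIF2B5 had log2 fold changes of 0.11, 0.04, -0.06, 0.15 and -0.08 with standard errors of 0.08 to 0.10, and none was called by group alone or in the fit with the replicate 1 term. EIF2B4 had 71.0, 68.8 and 69.5 CPM in sgHDAC7 and 68.3, 56.7 and 63.5 CPM in sgNT, and was the subunit whose groups did not overlap. EIF2B1 passed on replicates 2 and 3 alone (log2 0.22, edgeR adjusted p = 0.0298), with 76.5 and 76.1 CPM against 66.5 and 64.5 CPM. In replicate 1 EIF2B1 was lower in sgHDAC7, 73.8 against 78.5 CPM.

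EIF3 is the large complex that bridges the small ribosomal subunit and EIF4G. None of its 14 rows passed with group alone, and log2 fold changes ran from -0.12 (EIF3L) to 0.21 (EIF3A), with a median of 0.05. EIF3A, a core subunit of the complex, had 755, 900 and 821 CPM in sgHDAC7 and 648, 758 and 741 CPM in sgNT. Its groups overlapped, since sgHDAC7 replicate 1 lay below sgNT replicate 2. Its log2 fold change was 0.21 ± 0.09 (edgeR adjusted p = 0.223, or 0.026 given the replicate 1 term). The groups did not overlap for 6 other rows, chosen after their values were seen: EIF3B, EIF3D, EIF3J and EIF3K were above (log2 0.11 to 0.15), and EIF3H and EIF3L were below (-0.11 and -0.12). Groups did not overlap in 25.1% of all tested genes. Of the 6 rows, EIF3B, EIF3D and EIF3J passed on replicates 2 and 3 alone, as did 20.6% of all tested genes. EIF3C and EIF3CL, near-identical genes on chromosome 16 that share 95.2% of the 100-base words of EIF3CL, had log2 fold changes of 0.004 and 0.05, and how reads were split between them is uncertain.

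EIF5A, which relieves ribosomes stalled on proline-rich stretches and carries the modified residue hypusine, had 596, 586 and 644 CPM in sgHDAC7 against 541, 582 and 513 CPM in sgNT (edgeR log2 fold change 0.16 ± 0.07, adjusted p = 0.255). EIF6, which keeps free large ribosomal subunits from joining, had 87.2, 89.4 and 95.7 CPM in sgHDAC7 against 78.7, 79.8 and 84.0 CPM in sgNT (log2 0.17 ± 0.07, adjusted p = 0.228). In both genes all sgHDAC7 libraries were above all sgNT libraries. The same held for the EIF5A-like gene EIF5AL1 (log2 0.18, adjusted p = 0.157) and for 13.0% of all tested genes. Of all 50-base words in EIF5A transcripts, 14.5% also occur in EIF5AL1, so these rows may share reads. None of the 4 members of this class was called by group alone or given the replicate 1 term. EIF5A and EIF5AL1 passed on replicates 2 and 3 alone, as did 20.6% of all tested genes.

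Pseudogenes made up 7.94% to 8.16% of the members' counts in sgHDAC7 and 8.09% to 8.67% in sgNT. Of the 24 rows, 19 were tested, and neither group alone nor the fit with the replicate 1 term called any. On replicates 2 and 3 alone 5 of the 19 passed, 3 higher and 2 lower, against 20.6% of all tested genes. Their median log2 fold change with group alone was -0.01. EIF5P1 had the widest change of any member (log2 1.12 ± 0.38, edgeR adjusted p = 0.143), on 2.33, 1.21 and 1.62 CPM in sgHDAC7 against 0.789, 0.718 and 0.854 CPM in sgNT, or 88 counts in all. EIF5AP4 had 27.6, 21.6 and 23.9 CPM against 19.3, 24.0 and 19.4 CPM (log2 0.22 ± 0.14, adjusted p = 0.412), with overlapping groups. EIF1AXP1 took 8955 counts and its parent EIF1AX 6611. All sgHDAC7 libraries of the copy lay above all sgNT libraries (log2 0.17, edgeR adjusted p = 0.182), the EIF1AX groups overlapped, and the sign of EIF1AX turned when they were summed (log2 0.08, adjusted p = 0.606). The 5 pseudogenes and 2 antisense or divergent transcripts left untested had mean levels below 1 CPM, where 3 counts correspond to 0.24 to 0.299 CPM. EIF3J-DT, the tested divergent transcript, had a log2 fold change of -0.02.

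**Figure D5:**
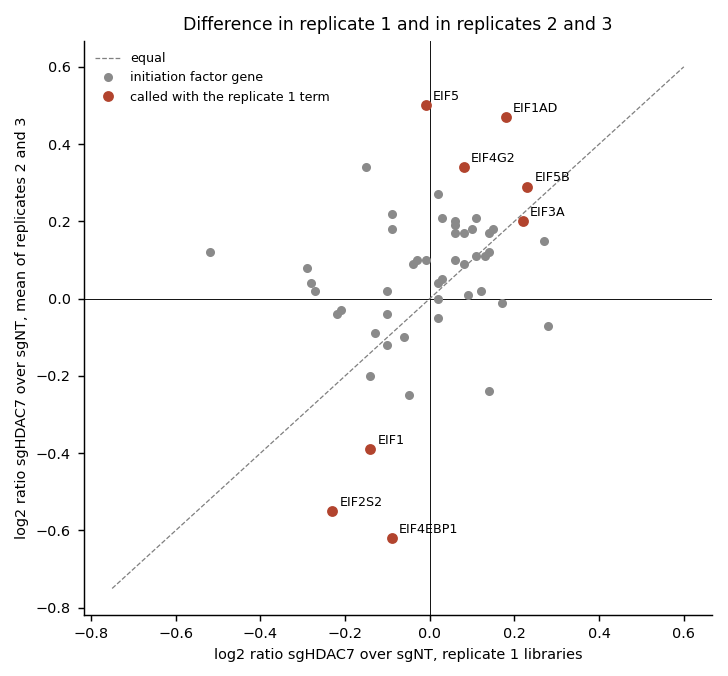
Log2 ratio sgHDAC7 over sgNT of each protein-coding member in replicate 1 (x axis) and as the mean of replicates 2 and 3 (y axis); the dashed line marks equal ratios, and red points are the 8 members called with the replicate 1 term. EIF5, at -0.01 and 0.50, and EIF4EBP1, at -0.09 and -0.62, lie far from the line, while EIF3A, at 0.22 and 0.20, and EIF5B, at 0.23 and 0.29, lie near it.

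For several of the called members the difference between the guides was smaller in replicate 1 than in the other replicates. EIF1 stood at -0.14 in replicate 1 and -0.39 over the others (log2 ratios), and EIF2S2 at -0.23 and -0.55. EIF4G2 stood at 0.08 and 0.34. EIF3A was the called member with the closest values, 0.22 and 0.20. No test of these differences was run, since each group has a single replicate 1 library. Over all 52 protein-coding members the median of the log2 ratios was 0.02 in replicate 1 and 0.10 in replicates 2 and 3. Over all 72 tested members, pseudogenes included, it was 0.04 and 0.04, and over all tested genes -0.005 and 0.004.

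Overlapping genes limit some of these values, since the counting is not stated to use strand. Exons of EIF1AD overlap BANF1 on the opposite strand, and the same holds for EIF5B with REV1, EIF4G2 with CTR9, EIF3A with NANOS1 and EIF2S1 with ATP6V1D. No such overlap was annotated for EIF2S2, EIF1, EIF5 or EIF4EBP1.

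Partners and regulators of the machinery outside the symbol rule were read from a list of 62 genes, of which 61 were tested. With group alone 1 was higher and 5 were lower, against 1.16% and 1.70% of all tested genes. The replicate 1 term gave 9 higher and 11 lower, against 5.78% and 6.81%. The higher gene was PABPC4, a poly(A)-binding protein, with 278, 293 and 295 CPM in sgHDAC7 against 251, 227 and 225 CPM in sgNT (log2 fold change 0.30 ± 0.07, edgeR adjusted p = 0.0487). None of the 22 cap, poly(A) and scanning partners was lower with group alone, and none of the 8 tested elongation and hypusine genes or the 5 termination and mitochondrial initiation genes was called. The 5 lower genes belong to the group of EIF2 phosphorylation and stress genes (DDIT3, ATF3 and TRIB3, 3 of 14) and to the mTORC1 axis (DDIT4 and SESN2, 2 of 12). The former group also holds regulators of EIF2 phosphorylation.

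DDIT3, a transcription factor made under stress, had 12.9, 11.98 and 12.8 CPM in sgHDAC7 against 16.1, 30.0 and 28.7 CPM in sgNT (edgeR log2 fold change -0.99 ± 0.21, adjusted p = 0.0437). SESN2, which restrains mTORC1 when leucine is scarce, had 15.7, 16.7 and 15.03 CPM in sgHDAC7 against 21.6, 116 and 118 CPM in sgNT (log2 -2.43 ± 0.50, adjusted p = 0.0384). In both genes sgNT replicate 1 lay close to sgHDAC7 and sgNT replicates 2 and 3 lay far above it. EIF4EBP1, EIF5, EIF2S1, EIF2S2P4, EIF2S2, EIF2S3, EIF1 and EIF4G2 also had sgNT replicate 1 nearer to the sgHDAC7 libraries than sgNT replicates 2 and 3. In EIF3A and EIF4EBP2 sgNT replicate 1 was instead the farthest from them. How many of all tested genes share the pattern was not counted. ATF3, DDIT4 and TRIB3 had log2 fold changes of -2.45, -3.19 and -1.81. Their log2 ratios were -0.4, -0.86 and -0.17 in replicate 1. On average in replicates 2 and 3 they were -2.56, -3.61 and -2.36. ATF3 had only 19, 20 and 17 counts in the sgHDAC7 libraries. The 5 lower genes and PABPC4 lost their calls without any 1 of the libraries other than sgNT replicate 1, and the limma fit kept PABPC4 alone.

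Promoters of 43 protein-coding members were found in the RefSeq table of GRCh38.p14, as 300-base windows from 250 bases before to 50 after the start. The E-box CACGTG, which MYC and USF proteins can bind, was in 11 of the 43 (25.6%), against 7.43% of all 27305 promoters and 10.3% of the 9941 promoters of tested genes. The members that hold it are EIF1B, EIF2AK2, EIF2B3, EIF3F, EIF3K, EIF4A3, EIF4B, EIF4E, EIF4G1, EIF4H and EIF5A2, none of which was called by group alone or given the replicate 1 term. The ETS motif CCGGAAG was in 12 (27.9%, against 20.5% of tested genes), CCAAT in 17 (39.5%, against 37.0%) and the GC box GGGCGG in 29 (67.4%, against 69.7%). TGATGNAA, a composite motif of ATF4 and C/EBP proteins, was in 0 of 43 windows and in 1.72% of the promoters of tested genes. Of the other motifs searched, YY1 was in 3 (6.98%, against 5.74% of tested genes) and NRF1 in 0 (against 2.39%). TATA was in 1 (2.33%, against 5.57%), MEF2 in 1 (2.33%, against 2.02%) and GATA in 0 (against 5.24%). Motifs were searched on both strands and describe letters in these windows only. EIF2S2, EIF3A and EIF4EBP1 were not among the 43.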

How the data were processed

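Libraries were made from poly(A)-selected, fragmented RNA with random primers, per the labels' protocols. The authors deposited whole-number read counts per gene for 6 libraries in 1 table, under a name that calls them CPM: 100% of the values are whole and the totals differ. The submitters' processing notes name genome build hg38 and edgeR 3.32.1 with no role. Aligner, counter, annotation and strandedness: not given in the sources used here. Columns named NC were taken as sgNT, the only other group, and 0 columns were left unmapped.

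From the deposited counts, edgeR 4.0.16 (R 4.3.3) was run as a quasi-likelihood test with TMM scaling and group alone on the 13841 genes that average 1 CPM or more. The two-sided p-values were adjusted over all of these by Benjamini and Hochberg's method, with a threshold of 0.05. Levels are TMM-scaled CPM, and the ± of a log2 fold change is its standard error. Alternatives were DESeq2 1.42.0, limma 3.58.1, other scalings and filters, the replicate number as a block, a replicate 1 term, replicates 2 and 3 alone and each library left out. Summing copies with their parents was added after seeing the data. The fits were tested on simulated data.

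Members were named with values if called by group alone or given the replicate 1 term, if among the 10 largest changes, or if on a panel of core factors. Any other member named was chosen after its values were seen. Members and lists were chosen with earlier results of these data known. Gene positions and transcripts come from GENCODE 29 on GRCh38, which matched 78 of the 79 members. Promoters come from RefSeq.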

Additional observations from a re-analysis of the deposited data

How the results depend on the processing

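Over 17 alternatives to the edgeR fit with group alone, the 38 genes followed singly (31 initiation factor members, 6 partners or regulators and HDAC7) kept their direction and their side of the threshold in 536 gene-by-alternative comparisons. Calls were lost in 48, gained in 41 and the sign turned in 16. The count of changed genes, 396, became 711 in DESeq2, 1743 with the replicate 1 term and 2847 on replicates 2 and 3 alone, and ran from 27 to 1588 with single libraries left out. The count of changed members, 1, became 3 without a scaling factor, 2 at a mean CPM of at least 5, 5 in DESeq2, 8 with the replicate 1 term, 25 on replicates 2 and 3 alone and 0 with copies summed, and ran from 0 to 13 with single libraries left out. The count on the list of partners and regulators, 6, became 1 in limma with either pseudocount, 20 with the replicate 1 term and 24 on replicates 2 and 3 alone, and ran from 0 to 16 with single libraries left out. The median log2 fold change of members, 0.041, was 0.024 without a scaling factor and 0.06 with copies summed, and ran from 0.019 to 0.055 with single libraries left out. The highest counts among the single-library omissions were those without sgNT replicate 1. The replicate block called 998 genes, 5 members and 8 partners or regulators. Same-numbered libraries of the groups correlated in their deviations by 0.303, 0.107 and 0.0968, and not every library correlated best with its own number, so the numbers were not taken to pair the samples. Signs turned for members that passed in neither fit. On replicates 2 and 3 alone they were EIF1AX (0.08), EIF2B2 (-0.01), EIF2B3 (0.04), EIF2B5 (0.02), EIF4EBP2 (-0.07) and EIF4G3 (0.02). Without sgNT replicate 1 they were EIF1AX (0.05), EIF2B2 (-0.03), EIF2B5 (0.003) and EIF4EBP2 (-0.05). Other omissions turned EIF2AK3 (-0.03), EIF2AK4 (0.01), EIF2B3 (0.01) and EIF4G3 (0.002 and 0.004), and summed copies turned EIF1AX (0.08). The other ends of their ranges over omissions were -0.13 (EIF1AX), 0.20 (EIF2AK3), -0.07 (EIF2AK4), 0.11 (EIF2B2), -0.12 (EIF2B3), -0.13 (EIF2B5), 0.09 (EIF4EBP2) and -0.05 (EIF4G3). The cause of these moves was not tested. Depth limits rows such as EIF5P1, since 3 counts correspond to 0.24 to 0.299 CPM in these libraries.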
